A study of Canis lupus familiaris with 25 samples.

Results

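The expression of cholesterol synthesis, uptake and efflux genes was compared among 3 kinds of canine perianal tumor tissue, namely hepatoid gland adenoma (HGA), primary apocrine gland anal sac adenocarcinoma (AGASAC) and AGASAC metastases. The genes were chosen by name, and 36 of the 37 listed were present under their symbol in a count table of 24532 genes. The remaining one was SREBF2, which is named only. HGA is a benign tumor of the hepatoid glands, which are modified sebaceous glands around the anus, while AGASAC is malignant and arises from the apocrine glands of the anal sac.

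Formalin-fixed, paraffin-embedded (FFPE) tissue of privately owned dogs was profiled by QuantSeq 3′ RNA sequencing, in which a transcript is represented by a fragment close to its 3′ end. The groups held 10 HGA (dogs aged 8 to 14 years, 4 of 10 neutered), 11 primary AGASAC (8 to 12.5 years, 9 of 11 neutered) and 4 metastases in sublumbal lymph nodes of the dogs of AGASAC 1 to 4 (8 to 10 years, 3 of 4 neutered). No treatment or genotype was given in the labels. Adjacent tissue had been removed before extraction, but each library is a bulk of all cells of a tumor section, so fewer cells of a type and less RNA per cell cannot be told apart. Counts on genes per library ranged from 1562347 to 6389555 in HGA, from 2581453 to 4218340 in primary AGASAC and from 2857541 to 3289546 in metastases. Levels are given as CPM, that is, counts scaled to library size. Where no read was counted, up to 3 counts remain possible (0.539 to 1.88 CPM by library, counting error only).

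Cholesterol is made from acetyl-CoA through the mevalonate pathway, whose isoprenoid products are joined to squalene, cyclised to lanosterol and converted to cholesterol in a series of sterol steps. When sterols are scarce in the endoplasmic reticulum, SCAP escorts the SREBP transcription factors to the Golgi for cleavage, and the INSIG proteins hold SCAP back when sterols are plentiful. Surplus sterol is esterified by SOAT1 or exported by ABCA1 and ABCG1, which are induced by the oxysterol-sensing liver X receptors NR1H3 and NR1H2. Sebaceous glands are known for a high output of lipids, sterols included.

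The tissue labels were checked against markers of each epithelium. The summed level of 5 squamous or basal markers (KRT5, KRT14, TP63, DSG3 and DSC3) was 3161 to 13290 CPM in HGA, 1.33 to 33 CPM in primary AGASAC and 2.37 to 23.1 CPM in metastases. The summed level of 4 gland markers (KRT8, KRT18, KRT19 and PIP) was 0 to 34 CPM in HGA, 3337 to 8608 CPM in primary AGASAC and 3323 to 8264 CPM in metastases. No library went against its label. The summed level of 4 adipocyte markers was 132 to 1352 CPM in HGA and 2.34 to 395 CPM in primary AGASAC, and these markers split, since CIDEC, a lipid droplet protein, was higher in HGA (log2FC 9.41) and ADIPOQ, an adipocyte hormone, was lower (log2FC −4.04). LEP was at most 2.94 CPM in any HGA. The 4 skeletal muscle markers summed to 0.437 to 29.5 CPM in HGA and to 4.08 to 767 CPM in primary AGASAC. In the lymph node metastases 7 T cell markers summed to 41.2 to 61 CPM and 6 B cell markers to 21.1 to 41.2 CPM, beside 14.2 to 117 CPM and 12.9 to 40.9 CPM in primary AGASAC. The part of these cells in the levels below was not tested. The contrast of the tumors is therefore also a contrast of epithelia, and these cannot be told apart in the comparisons with HGA.

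One library stood apart for the cholesterol genes. HGA 10 had the lowest level of the 10 HGA in 14 of the 36 genes and the highest in 5. It was the only HGA of extraction batch 9 and the only one in the second naming series of the sequencing files (series B). Series A held 9 of 10 HGA, 3 of 11 primary AGASAC and 4 of 4 metastases, while series B held 7 primary AGASAC. Naming series and tumor type are thus largely confounded in the comparison of HGA and primary AGASAC. The summed level of 4 proliferation markers (MKI67, TOP2A, BUB1 and CDK1) was 214 CPM in HGA 10 and 151 CPM in HGA 4, against 10.8 to 29.5 CPM in the other HGA. The part of these factors in the values of HGA 10 was not tested. The numbers of calls in the comparisons of HGA with primary AGASAC and with metastases are given with and without it.

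HGA and primary AGASAC were compared to see how these tumors differ in the handling of cholesterol. Of the 36 genes, 17 were higher in HGA and 1 was lower. They included the lipoprotein receptor SCARB1, 5 of 7 enzymes of the mevalonate and isoprenoid steps, 6 of 12 enzymes of the sterol steps, the SREBP retention factor INSIG2 and the esterifying enzyme SOAT1, while STARD4, a cytosolic sterol carrier, was lower. Calls rest on edgeR's quasi-likelihood test across all genes, with an adjusted p (Benjamini-Yekutieli) no larger than 0.05 and a log2 fold change (log2FC) of HGA relative to AGASAC of at least 1 in either direction. Each adjusted p below is from that test. The background is high, since 25.1% of the 12070 genes tested were called, 12.6% as higher and 12.5% as lower in HGA. The calls covered 50% of the cholesterol genes. Their median log2FC was 0.94, beside −0.03 over all genes tested. The fitted difference was above 0 in 25 of the 36 genes.

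**Figure D1:**
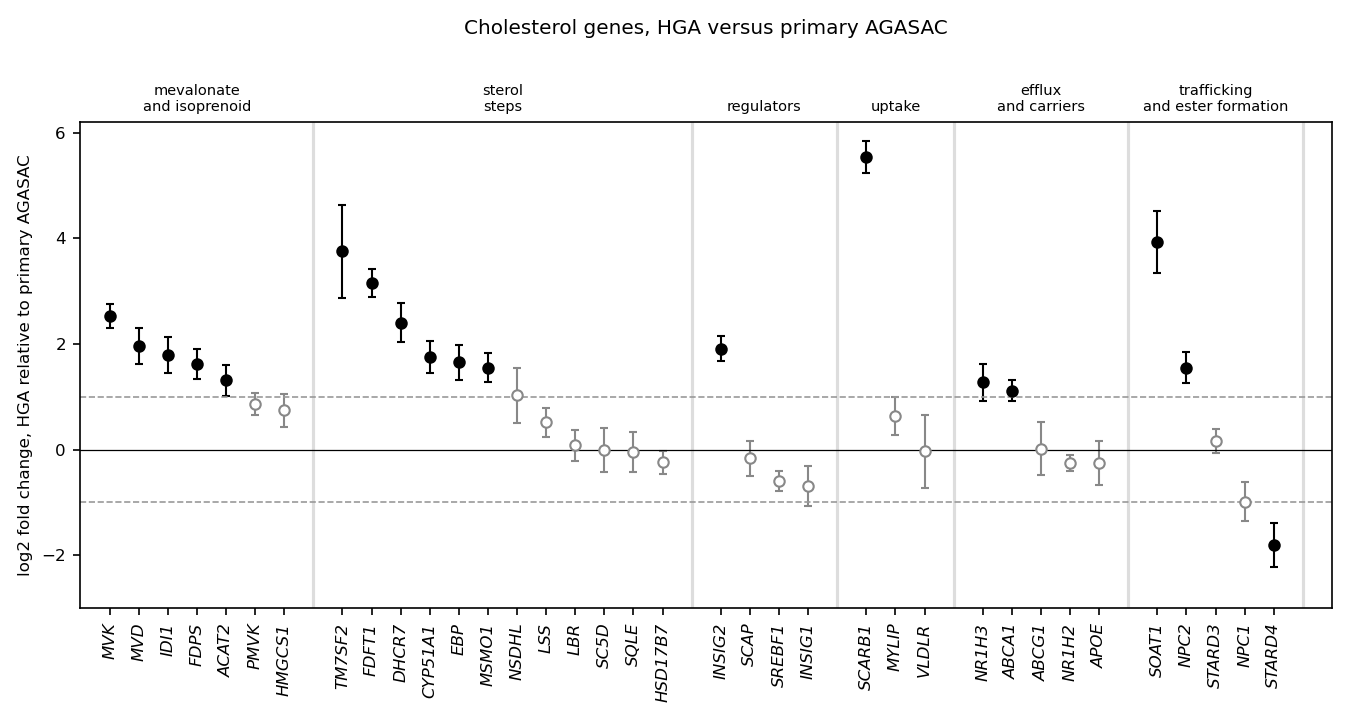
The y axis gives the log2 fold change of HGA (n = 10) relative to primary AGASAC (n = 11) for the 36 cholesterol genes on the x axis, grouped by role. Points are edgeR estimates and bars their standard errors, filled points are called, and dashed lines mark a log2FC of −1 and 1. SCARB1 lies highest at 5.54, and STARD4 is the only filled point below 0, at −1.81.

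Among the mevalonate and isoprenoid enzymes, MVK, MVD, IDI1, FDPS and ACAT2 were higher in HGA, and the median log2FC of the 7 genes was 1.62. MVK phosphorylates mevalonate. Its level in HGA was 31 CPM at the lowest, 134 at the median and 167 at the highest, against 14.3, 21.5 and 26.4 CPM in primary AGASAC. The groups did not overlap, and the log2FC was 2.52 (standard error 0.23, adjusted p = 4.44e-08). The groups did not overlap in 4 of the 36 genes, namely MVK, FDFT1, INSIG2 and SCARB1. This share of 11.1% is near the 9.24% of all genes tested.

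MVD, which decarboxylates mevalonate diphosphate, had a lowest, median and highest level of 3.36, 43.4 and 63.7 CPM in HGA and of 4.99, 9.40 and 16.4 CPM in primary AGASAC. HGA 8 alone lay below all primary AGASAC, and the other 9 HGA lay above them all. The log2FC was 1.96 (standard error 0.33, adjusted p = 0.000386). IDI1, the isomerase of the isoprenoid units, behaved in a similar way with HGA 10 as the exception. It was at 8.29 CPM in HGA 10 and at 60.5 to 236 CPM in the other 9 HGA, against 13.7 to 47.5 CPM in primary AGASAC (log2FC 1.79, standard error 0.34, adjusted p = 0.00120). FDPS, which makes farnesyl diphosphate, ranged from 50.6 to 251 CPM (median 171) in HGA and from 24.1 to 110 CPM (median 46.9) in primary AGASAC. Its groups overlapped in 4 HGA, and its log2FC was 1.62 (standard error 0.29, adjusted p = 0.000677).

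ACAT2, the cytosolic thiolase that joins acetyl-CoA units, was at 22.1 to 48.9 CPM (median 32.8) in HGA and at 4.32 to 31.2 CPM (median 11.0) in primary AGASAC. The smallest difference among the called genes of these steps was found here (log2FC 1.31, standard error 0.29, adjusted p = 0.00602). PMVK, the second mevalonate kinase, passed the adjusted p but not the fold (log2FC 0.86, standard error 0.20, adjusted p = 0.0108), and 30.9% of all genes passed the adjusted p alone. HMGCS1, which makes HMG-CoA, was not called (log2FC 0.74, standard error 0.32, adjusted p = 0.586). Its level was 37.5 to 397 CPM (median 101) in HGA and 37.9 to 117 CPM (median 67.6) in primary AGASAC. The highest value of HMGCS1 was that of HGA 10, the library with the lowest level of IDI1, and without HGA 10 the log2FC of HMGCS1 was 0.36.

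Among the sterol steps, FDFT1, CYP51A1, TM7SF2, MSMO1, EBP and DHCR7 were higher in HGA, 0 of the 12 enzymes were called lower, and the median log2FC was 1.29. FDFT1 is squalene synthase, the first enzyme committed to sterols. It was at 85.1 CPM at the lowest, 378 at the median and 730 at the highest in HGA, and at 27.9, 43.9 and 60.6 CPM in primary AGASAC. All 10 HGA lay above all 11 primary AGASAC, and the log2FC was 3.15 (standard error 0.26, adjusted p = 1.40e-08), an 8.85-fold difference.

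The enzymes that act directly after FDFT1 did not show this difference. SQLE, squalene epoxidase, was at 2.94 to 36.7 CPM (median 21.4) in HGA and at 9.56 to 66.9 CPM (median 16.8) in primary AGASAC, and its log2FC was −0.045 (standard error 0.37, adjusted p = 1). LSS, which cyclises the epoxide to lanosterol, was at 12.2 to 84.3 CPM (median 33.6) and at 13.7 to 44.2 CPM (median 24.7), and its log2FC was 0.51 (standard error 0.27, adjusted p = 1). HGA and primary AGASAC overlapped widely in both genes. The difference between FDFT1 and its neighbours in the pathway was itself not tested.

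CYP51A1, the lanosterol demethylase, was called again (log2FC 1.76, standard error 0.30, adjusted p = 0.000338). It was at 42.8 to 230 CPM (median 201) in HGA and at 27.1 to 144 CPM (median 42.1) in primary AGASAC, where the next highest tumor after AGASAC 11 had 54.2 CPM. DHCR7, the reductase of the last step of one branch, was at 11.3 to 231 CPM (median 126) in HGA and at 6.19 to 56.6 CPM (median 24.9) in primary AGASAC. Its lowest HGA value was that of HGA 10, and the other 9 HGA had at least 78.9 CPM, above all primary AGASAC (log2FC 2.40, standard error 0.37, adjusted p = 0.000126). EBP, the sterol isomerase, was also higher (log2FC 1.65, standard error 0.34, adjusted p = 0.00318), with 23.1 to 173 CPM in HGA and 11.0 to 53.5 CPM in primary AGASAC. MSMO1, the methylsterol oxidase, followed (log2FC 1.55, standard error 0.27, adjusted p = 0.000616), with 21.8 to 135 CPM in HGA and 13.6 to 53.4 CPM in primary AGASAC. In both genes HGA 10 was the lowest HGA and lay within the range of primary AGASAC, but it was not alone there. Only 6 of 10 HGA in EBP and 8 of 10 in MSMO1 lay above all primary AGASAC.

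TM7SF2 and LBR both carry sterol reductase activity for the same step, and they differed in pattern. TM7SF2 was at 96.7 to 520 CPM in 9 HGA and at 1.75 CPM in HGA 10. In primary AGASAC it was at 0 to 1.72 CPM in 6 tumors and at 10.3, 22.7, 31.1, 46.8 and 80.1 CPM in AGASAC 10, 4, 6, 2 and 11. The metastases of dogs 1 and 3, whose primary tumors were among the 6 low ones, had 0.957 and 1.27 CPM, and those of dogs 2 and 4 had 50.3 and 41.2 CPM. The gene was thus near the limit of 3 counts or clearly above it in the same way in the primary tumor and the metastasis of each of these 4 dogs. The log2FC was 3.75 with a wide standard error of 0.88 (adjusted p = 0.0111). It was 4.37 without AGASAC 11, 5.30 with extraction batch as a term and 9.11, 2.85 and 4.89 within batches 5, 6 and 8, so its size is uncertain. LBR, by contrast, was at 14.4 to 98.7 CPM in HGA and at 21 to 69.5 CPM in primary AGASAC (log2FC 0.08, standard error 0.30, adjusted p = 1).

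NSDHL, HSD17B7 and SC5D were not called either. NSDHL, a sterol dehydrogenase, showed a log2FC of 1.02 with a standard error of 0.52 (adjusted p = 1) and a range of 1.75 to 31.4 CPM in HGA and of 1.02 to 20.2 CPM in primary AGASAC. The log2FC of HSD17B7, a sterol ketoreductase, was −0.24 (standard error 0.22, adjusted p = 1). For SC5D, the desaturase before DHCR7, it was −0.006 (standard error 0.41, adjusted p = 1). Its level in HGA ran from 1.31 CPM in HGA 10 to 170 CPM in HGA 6, a wider range than the 39.9 to 97.4 CPM of primary AGASAC.

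**Figure D2:**
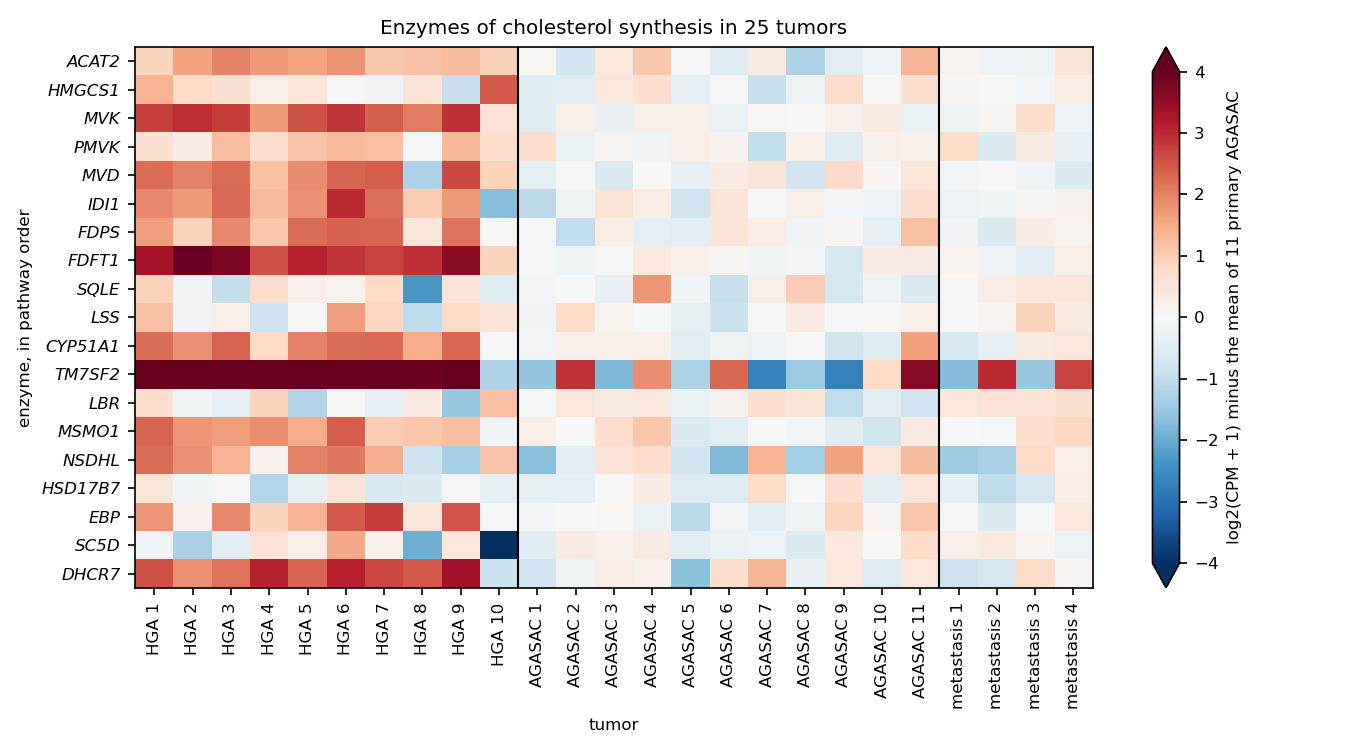
Each row is 1 of 19 synthesis enzymes in pathway order and each column 1 of the 25 tumors, with black lines between HGA, primary AGASAC and metastases. Color gives log2(CPM + 1) minus the mean of the 11 primary AGASAC for that gene, and values beyond −4 or 4 take the end colors. FDFT1 is high in the HGA columns and SQLE is not, TM7SF2 varies among AGASAC, and the HGA 10 column is paler or blue in most rows, while HMGCS1 and LBR are at their highest among HGA there.

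The regulators did not move as a group. INSIG2, one of a pair of proteins that retain SCAP, was at 47.8 to 270 CPM (median 90.8) in HGA and at 20.1 to 33.6 CPM (median 29) in primary AGASAC, without overlap (log2FC 1.91, standard error 0.24, adjusted p = 5.68e-06). INSIG1, the other of the pair and itself a target of SREBP, was at 34.5 to 285 CPM (median 99.8) in HGA and at 27.5 to 406 CPM (median 153) in primary AGASAC (log2FC −0.69, standard error 0.38, adjusted p = 1). SREBF1, which encodes SREBP-1, was at 155 to 334 CPM (median 226) in HGA and at 203 to 653 CPM (median 314) in primary AGASAC (log2FC −0.60, standard error 0.19, adjusted p = 0.117). SCAP was at 4.39 to 40.6 CPM in HGA and at 7.64 to 41.7 CPM in primary AGASAC (log2FC −0.17, standard error 0.33, adjusted p = 1). INSIG2 was therefore the only one of the 4 regulators that was called.

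Among the genes of uptake, SCARB1 differed more than any other of the 36 genes. It encodes the scavenger receptor that takes up cholesteryl esters from high-density lipoprotein. Its level in the 10 HGA was 1130 CPM at the lowest, 2922 at the median and 4900 at the highest. In primary AGASAC the corresponding values were 35.4, 49.5 and 102 CPM. The mean was 2840 ± 1219 CPM (SD, n = 10) in HGA and 60.8 ± 23.4 CPM (SD, n = 11) in primary AGASAC. The log2FC was 5.54 (standard error 0.31, adjusted p = 1.50e-11), a 46.6-fold difference, and HGA 10, at 3012 CPM, was the fourth highest HGA. VLDLR, a lipoprotein receptor, was at 0 to 44.6 CPM in HGA and at 0 to 58.7 CPM in primary AGASAC (log2FC −0.03, standard error 0.69, adjusted p = 1). MYLIP, a ubiquitin ligase that directs lipoprotein receptors to degradation, was not called (log2FC 0.64, standard error 0.36, adjusted p = 1).

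**Figure D3:**
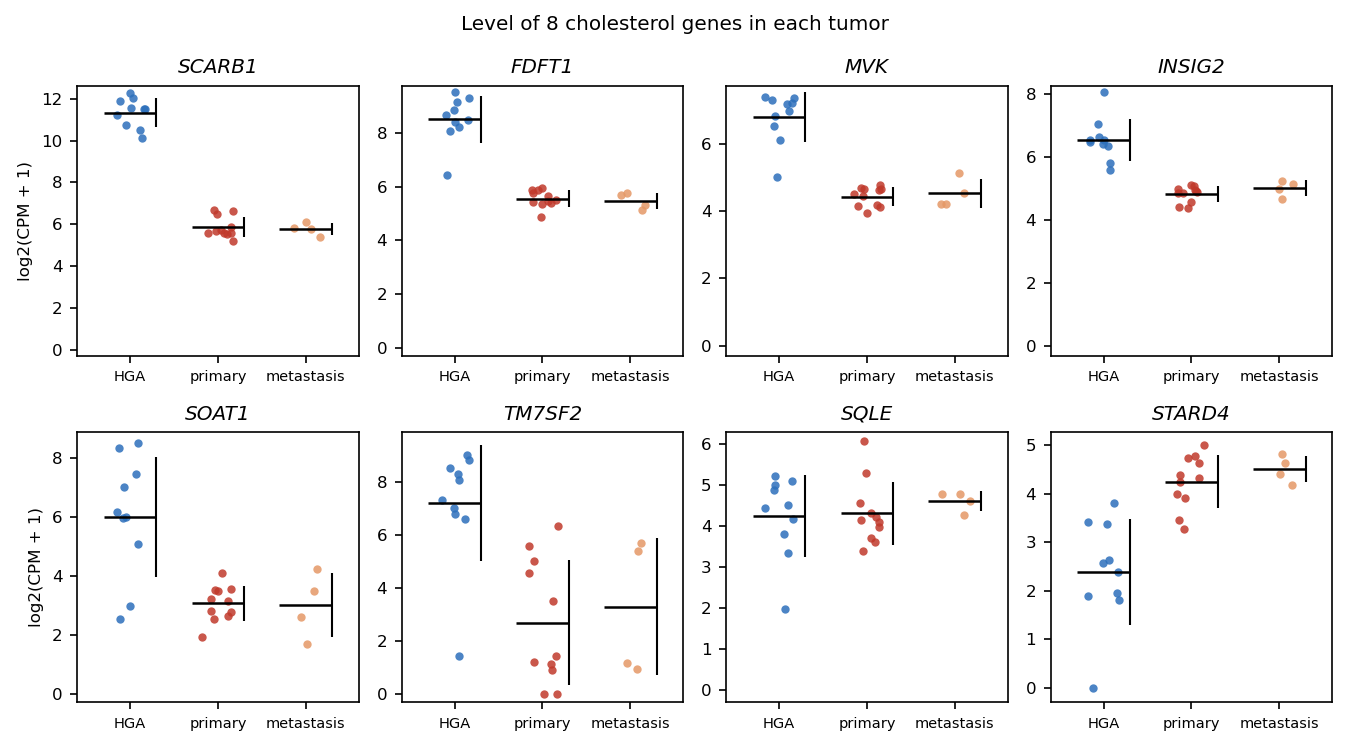
Each panel gives log2(CPM + 1) of 1 gene in the 10 HGA, 11 primary AGASAC and 4 metastases, with a point per tumor, a horizontal line at the mean and a vertical line of 1 SD to either side. SCARB1, FDFT1, MVK and INSIG2 do not overlap between HGA and primary AGASAC, SOAT1 and TM7SF2 spread widely, SQLE overlaps throughout, and STARD4 is lower in most HGA.

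Of the genes of efflux, ABCA1 and NR1H3 were called, both narrowly, and the difference from their partners ABCG1 and NR1H2 was not tested. ABCA1, which exports cholesterol to apolipoproteins, was at 211 to 576 CPM (median 281) in HGA and at 104 to 235 CPM (median 144) in primary AGASAC, with 8 of 10 HGA above all primary AGASAC (log2FC 1.12, standard error 0.20, adjusted p = 0.000712). The highest value was that of HGA 10, and without it the log2FC was 0.997, just under the fold threshold, at an adjusted p of 0.00113. The call was also lost with extraction batch as a term and with scaling by library size alone. ABCG1, the partner transporter, did not pass (log2FC 0.02, standard error 0.50, adjusted p = 1) and ranged from 0.627 CPM in HGA 4 to 64.3 CPM in HGA 8.

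NR1H3, the liver X receptor alpha, was at 9.17 to 36.8 CPM (median 25.3) in HGA and at 0.975 to 19.8 CPM (median 9.37) in primary AGASAC. Its log2FC of 1.27 (standard error 0.35) had an adjusted p of 0.04995, at the threshold. When each of the 21 tumors was left out in turn, the call was lost in 15 fits (adjusted p 0.0232 to 0.107). The 21 log2FC values were between 1.14 and 1.41, so the direction was the same in all of them. NR1H2, the liver X receptor beta, varied little, at 26.8 to 52.7 CPM in HGA and 39.5 to 61.5 CPM in primary AGASAC (log2FC −0.25, standard error 0.15, adjusted p = 1). APOE, a lipoprotein ligand and acceptor of exported cholesterol, was at 34.0 to 303 CPM (median 135) in HGA and at 61.9 to 495 CPM (median 147) in primary AGASAC (log2FC −0.26, standard error 0.41, adjusted p = 1).

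Macrophages also express APOE, ABCA1, ABCG1 and NR1H3. The summed level of 11 macrophage markers was 110 to 357 CPM (median 227) in HGA and 205 to 602 CPM (median 394) in primary AGASAC, and 0 of the 10 tested markers were higher and 2 were lower in HGA, namely C1QB and CD14. The part of macrophages in the levels of these 4 genes was not tested.

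Among the genes of esterification and intracellular transport, SOAT1 and NPC2 were higher in HGA and STARD4 was lower. SOAT1, which forms cholesteryl esters, was at 4.8, 6.75, 32.4, 61.1, 62.2, 70.1, 126, 172, 319 and 364 CPM in the 10 HGA in rising order. It was at 2.78 to 16.1 CPM (median 7.74) in the 11 primary AGASAC. HGA 9 and HGA 6 lay within the range of primary AGASAC and the other 8 HGA lay above it. The log2FC was 3.93 (standard error 0.58, adjusted p = 6.71e-05), a 15.2-fold difference.

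The lysosomal export proteins NPC1 and NPC2 went in opposite directions, and only NPC2 was called. NPC2, the soluble one, was at 14.4 CPM in HGA 10 and at 125 to 214 CPM in the other 9 HGA, against 34.3 to 111 CPM in primary AGASAC (log2FC 1.55, standard error 0.30, adjusted p = 0.00145). NPC1, the membrane protein, was at 16.1 to 114 CPM (median 34.4) in HGA and at 19.4 to 185 CPM (median 69.8) in primary AGASAC (log2FC −0.99, standard error 0.37, adjusted p = 0.309). The highest HGA value of NPC1 was that of HGA 4, and without HGA 4 the log2FC was −1.32 with an adjusted p of 0.0283, which is a call. STARD4 was at 0 to 13.1 CPM (median 4.57) in HGA and at 8.64 to 31.3 CPM (median 19.1) in primary AGASAC, with 7 of 10 HGA below all primary AGASAC (log2FC −1.81, standard error 0.41, adjusted p = 0.00858). It was counted with 52 reads at most in an HGA library. STARD3, an endosomal sterol carrier, was not called (log2FC 0.16, standard error 0.23, adjusted p = 1).

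Ratios of genes with related roles were computed within each tumor as log2 of (CPM + 1), as a description without a test. The median of INSIG1 over INSIG2 was 0.20 in HGA and 2.39 in primary AGASAC, and INSIG1 exceeded INSIG2 in 7 of 10 HGA and 10 of 11 primary AGASAC. TM7SF2 exceeded LBR in 9 of 10 HGA and in 1 of 11 primary AGASAC. NPC2 exceeded NPC1 in 9 of 10 HGA, in 2 of 11 primary AGASAC and in 1 of 4 metastases. STARD4 over STARD3 had a median of −2.06 in HGA and of 0.06 in primary AGASAC. ABCG1 was below ABCA1 in all 25 tumors, and NR1H3 was above NR1H2 in 2 of the 25, both of them HGA. The ranges of HGA and primary AGASAC overlapped in all 6 ratios, and in TM7SF2 over LBR and in NPC2 over NPC1 HGA 10 was the lowest HGA.

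**Figure D4:**
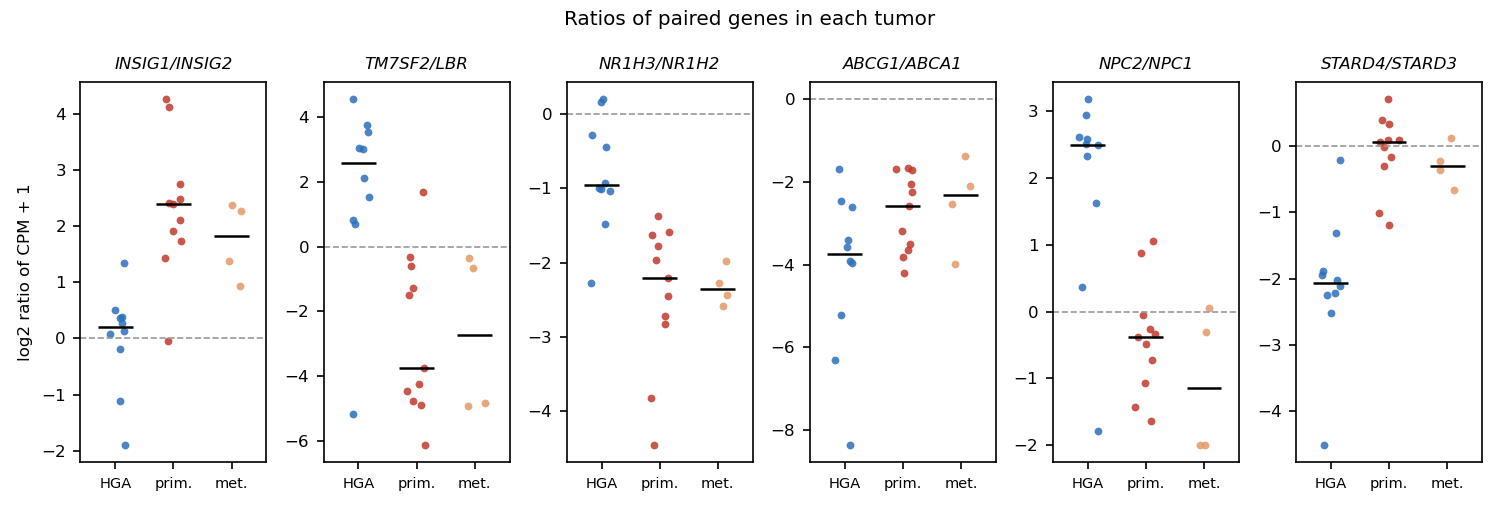
Each panel gives the log2 ratio of CPM + 1 of a pair of genes in the 10 HGA, 11 primary AGASAC (prim.) and 4 metastases (met.), with a point per tumor, a line at the median of each group and a dashed line at equal levels. TM7SF2/LBR and NPC2/NPC1 are above 0 in 9 of 10 HGA, and ABCG1/ABCA1 is below 0 in every tumor.

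Other genes around the pathway were taken as lists, to be read beside the 12.6% of all genes called higher and the 12.5% called lower in HGA. Of 7 genes of acetyl-CoA supply and ketone bodies, 7 were higher in HGA, with a median log2FC of 2.93. They included SLC25A1, which exports citrate from mitochondria (log2FC 2.93, standard error 0.22, adjusted p = 2.70e-09), and ACLY, which splits it to acetyl-CoA (log2FC 2.54, standard error 0.31, adjusted p = 3.69e-06). ACLY was at 472 to 4741 CPM in HGA and at 245 to 716 CPM in primary AGASAC. The isoprenoid branch, which leads to dolichol, ubiquinone and protein prenylation, had 1 of 11 genes higher and 0 lower (median log2FC 0.29), no larger a share than over all genes. This gene was DHDDS, of dolichol synthesis (log2FC 1.90, standard error 0.21, adjusted p = 1.13e-06).

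Of 7 genes for the cleavage and degradation machinery of the SREBP system, 0 were called (median log2FC −0.06). In edgeR 3 of these 7 had an adjusted p of at most 0.05 but missed the fold, and RNF139 was among them with a log2FC of −0.81. Of 18 tested genes of sterol transport and oxysterols, 4 were higher in HGA and 3 were lower (median log2FC 0.43). Over all genes tested 12.6% were higher and 12.5% lower, so the share of lower genes is near that background. LIPA, the lysosomal acid lipase that frees cholesterol from its esters, was higher (log2FC 3.71, standard error 0.26, adjusted p = 1.01e-09), as were OSBPL5, OSBPL9 and APOC1. NCEH1, a hydrolase of cholesteryl esters outside the lysosome, was lower (log2FC −3.59, standard error 0.40, adjusted p = 9.59e-07), as were GRAMD1B, which carries sterol from the plasma membrane to the endoplasmic reticulum, and the lipoprotein receptor LRP8. NCEH1 was at 0 to 6.55 CPM in HGA and at 13.4 to 68.9 CPM in primary AGASAC.

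The 4 metastases were set against AGASAC 1 to 4, their own primary tumors. In edgeR, in a fit without the dog as a term, 0 of the 36 genes were called and 0 had an unadjusted p under 0.05, and DESeq2 called 0 as well. Of all 12629 genes tested 0% were called and 1.15% had an unadjusted p under 0.05. With the dog as a term, which pairs the tumors, 0 of the 36 genes were called and 0 had an unadjusted p under 0.05, beside 3.89% of all genes. The largest fitted difference was that of NR1H3 (log2FC of metastasis relative to primary tumor 0.65, standard error 0.58, adjusted p = 1). It was at 3.29, 0.975, 9.37 and 7.19 CPM in AGASAC 1 to 4 and at 7.66, 6.59, 9.21 and 9.51 CPM in their metastases, which is higher in 3 of 4 dogs. The value of AGASAC 2 rests on 3 reads. SCARB1 was at 56.8, 88.7, 49.5 and 45.4 CPM in the primary tumors and at 41.5, 53.5, 54.6 and 68.8 CPM in the metastases, lower in dogs 1 and 2 and higher in dogs 3 and 4. LBR, SCAP and STARD3 were higher in the metastasis in 4 of 4 dogs and MSMO1 was lower in 4 of 4, and none of these was called. Some of these differences were small, as for SCAP in dog 1 (24.2 and 24.6 CPM) and MSMO1 in dog 3 (40.1 and 39 CPM). A gene without a difference can also agree in 4 of 4 dogs. The share of all genes that did so was not computed, so the count is not read as a result. A call missed with 4 tumors in each group does not show that the levels were equal.

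HGA was also compared with the 4 metastases, which shares the 10 HGA with the comparison above and is therefore no independent test. Here 11 of the 36 genes were called, 10 higher and 1 lower in HGA, and 16.1% of the 13195 genes tested were called, 8.4% higher and 7.69% lower. The 10 higher genes were SCARB1, FDFT1, DHCR7, MVK, MVD, CYP51A1, FDPS, INSIG2, NR1H3 and ACAT2. For SCARB1 the log2FC was 5.69 (standard error 0.50, adjusted p = 4.995e-06), beside 5.54 against the primary tumors. FDFT1 had 3.22 (standard error 0.46, adjusted p = 0.000589), beside 3.15, and MVK had 2.37 (standard error 0.39, adjusted p = 0.00238), beside 2.52. SOAT1 was not called at a log2FC of 3.77 (standard error 1.06, adjusted p = 0.123), beside 3.93.

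NPC1 was the gene that was lower. It was at 85.2, 120, 150 and 126 CPM in the 4 metastases. The log2FC was −1.59 (standard error 0.38, adjusted p = 0.0403), beside −0.99 against the primary tumors, and the difference between these was not tested. The calls depended on single libraries. Without metastasis 1 or 2 there were 3 calls (FDFT1, MVK and SCARB1), without metastasis 3 there were 4 and without metastasis 4 there were 5, while 11.4% to 11.9% of all genes were called in these fits. The 3 and 4 calls are thus 8.33% and 11.1% of the 36 genes, at or below the background. Without HGA 1, 5, 6 or 7 there were 7 calls, which is 19.4% of the 36 genes, beside 14% to 14.7% of all genes. Without HGA 10 there were 15 (41.7%), with 19.5% of all genes called. NPC1 was lost without each of the 4 metastases and also without each HGA other than HGA 4 and HGA 10.

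The relation of 8 pairs of genes and groups was examined across the tumors of 1 group, as Pearson's r and Spearman's rho of log2(CPM + 1) with two-sided permutation tests of 100000 resamples and Benjamini-Hochberg adjustment over the 8. None passed. HMGCS1 and SQLE, both targets of SREBP, had an r of −0.23 (permutation p = 0.494, adjusted 0.659) and a rho of −0.35 (p = 0.330, adjusted 0.377) in the 10 HGA. In the 11 primary AGASAC their r was −0.04 (permutation p = 0.905, adjusted 0.905) and their rho −0.46 (p = 0.154, adjusted 0.309). Without the pair of tumors farthest from the median of HMGCS1, r was −0.04 in HGA and 0.18 in primary AGASAC.

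NR1H3 and APOE gave the strongest relation, in primary AGASAC. Here r was 0.70 (permutation p = 0.0130, adjusted 0.104) and rho 0.65 (p = 0.0339, adjusted 0.271), and r was 0.73 without AGASAC 1 and 2, so the relation did not rest on these. In HGA the same pair had an r of 0.06 (permutation p = 0.872, adjusted 0.905) and a rho of −0.08 (p = 0.838, adjusted 0.838), and −0.10 as r without HGA 8 and 10. ABCA1 and ABCG1 had an r of −0.49 (permutation p = 0.143, adjusted 0.381) and a rho of −0.52 (p = 0.133, adjusted 0.309) in HGA, where r was −0.08 without HGA 4 and 10, and an r of 0.35 (p = 0.287, adjusted 0.574) and a rho of 0.36 (p = 0.273, adjusted 0.364) in primary AGASAC, where r was −0.23 without AGASAC 2 and 3. HMGCS1 and INSIG1 had an r of −0.50 (permutation p = 0.137, adjusted 0.381) and a rho of −0.50 (p = 0.144, adjusted 0.309) in HGA, where r was −0.13 without HGA 9 and 10. In primary AGASAC their r was 0.25 (permutation p = 0.481, adjusted 0.659) and their rho 0.38 (p = 0.247, adjusted 0.364), and r was 0.61 without AGASAC 7 and 9. Extraction batches held at most 3 tumors of a group, too few for values within a batch.

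Both tumors were present with at least 2 samples each in extraction batches 5, 6 and 8, and within each of these the 18 called genes kept their direction in 18 of 18. These tumors, like those of the neutered dogs below, were part of the fit that chose the 18 genes. The shared direction is therefore no independent test. With 2 or 3 tumors of a kind, 3, 4 and 5 of the 18 genes were still called and 15, 14 and 13 were not. Of all genes 2.12%, 4.84% and 2.46% were called. FDFT1 and SCARB1 were called in all 3 batches. SCARB1 had a log2FC of 5.2, 5.77 and 4.72 and FDFT1 of 3.39, 3.28 and 2.82 within batches 5, 6 and 8. Neutered dogs made up 4 of 10 HGA and 9 of 11 primary AGASAC. Among neutered dogs alone the 18 genes also kept their direction, and 6 were called, namely FDFT1, INSIG2, MSMO1, MVK, SCARB1 and SOAT1, while 12.8% of all genes were called. Taken as a fold and not as its log2, the difference was over 1.5 times smaller in 5 genes and over 1.5 times larger in SOAT1. The log2FC was 0.74 for FDPS, 0.63 for EBP, 1.75 for DHCR7, 2.78 for TM7SF2 and −1.04 for STARD4, and 4.68 for SOAT1. FDPS, EBP and NR1H3 (0.99) then lay under the fold threshold. The 4 neutered HGA included HGA 10. It was the lowest of all HGA in FDPS, EBP, DHCR7 and TM7SF2 and the highest in STARD4. The fit of neutered dogs was not repeated without HGA 10, so its part in these changes was not tested. In the comparison of all dogs, 17 genes were called without HGA 10, 16 higher and 1 lower. The share of all genes called then went from 25.1% to 27.3%. The genes whose groups did not overlap went from 4 to 8 with IDI1, TM7SF2, DHCR7 and NPC2 (11.1% to 22.2% of the 36), beside 9.24% and 13% of all genes tested.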

How the data were processed

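Total RNA of 25 FFPE tumors was sequenced with QuantSeq 3′. The authors trimmed the reads with Cutadapt, aligned them with STAR to CanFam3.1, counted them with featureCounts in 2 rounds, the second with extended 3′ ends, and distributed multi-mapped reads evenly, and they deposited whole counts per gene without normalization. The same table holds the authors' normalized counts as a signal, and the log2 fold change with its p-value from the authors' own comparison in DESeq2, and these were not used. There were 0 columns of samples left out.

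Tests were run with edgeR 4.0.16 under R 4.3.3 (DESeq2 1.42.0 as an alternative), using filterByExpr (minimum count 10, minimum total count 15), TMM and the quasi-likelihood test, with 21 primary tumors in the comparison of HGA and AGASAC and no covariate. The standard error of a log2FC was taken as its size over the square root of F. Levels of single tumors were scaled by TMM factors from the 25 samples together, so means and fitted values differ slightly in scale. All genes tested entered the Benjamini-Yekutieli adjustment. The scripts were tested on simulated data. Metastases and primary tumors of the same number come from the same dog, and they deviated together from the group means (r 0.699, 0.489, 0.548 and 0.422 across genes). Replicates are separate tumors, and no pair of libraries of the same group agreed within sampling noise. Extraction batches and naming series come from the study's supplementary information, and AGASAC 4 has no naming series there. The members, lists and tests were chosen with earlier results of these data known. All members were named by role, with full values for called genes and for a fixed set of regulators and transporters, and examples from the lists were named after their values were seen. Sequences are not printed.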

Additional observations from a re-analysis of the deposited data

Results flagged for a closer look

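A gap test (Dixon) was applied to the levels of the 36 genes in the 10 HGA and in the 4 metastases, on log2(CPM + 1), and 9 of 72 sets of values held a tumor whose gap to the next was too large. Chance gives about 1 in 20. HGA 10 was the lowest HGA in 6 of these, with 31 CPM of MVK (next HGA 68.3), 8.29 CPM of IDI1 (next 60.5), 85.1 CPM of FDFT1 (next 271), 1.75 CPM of TM7SF2 (next 96.7), 11.3 CPM of DHCR7 (next 78.9) and 14.4 CPM of NPC2 (next 125). The other 3 were MVD at 3.36 CPM in HGA 8 (next 17.9), STARD4 at 0 CPM in HGA 9 (next 2.51) and LBR at 58.1 CPM in metastasis 1 (next 64.1). The gap of STARD4 lies near the limit of 3 counts, since HGA 9 had 0 reads and the next tumor, HGA 4, had 4. HGA 10 was the only HGA of its extraction batch and of its naming series, and it had the highest proliferation sum among HGA. These cannot be told apart in a single tumor.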

How the results depend on the processing

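HGA and primary AGASAC gave 18 called genes. RLE, DESeq2, Benjamini-Hochberg adjustment, no filter on low counts, a minimum of 10 counts in every sample, no fold threshold, all 15 AGASAC, extraction batches 5, 6 and 8 only and the batch as a term gave 13 to 19, and library size alone gave 16. With library size alone the median log2FC of all genes was −0.33 in place of −0.03. Fewer were called in naming series A only (10), in neutered dogs only (6) and within extraction batches 5, 6 and 8 (3, 4 and 5, added after seeing the data). In series A, with 9 HGA and 3 primary AGASAC, 16.1% of all genes were called. The calls of ABCA1, EBP, INSIG2, MSMO1, MVD, SOAT1, STARD4 and TM7SF2 were lost there. Fewer samples entered these fits, and folds changed as well among neutered dogs, whose HGA included HGA 10. The cause was not tested. Leaving out each tumor gave 17 to 18. All 18 kept their direction in every setting that tested them, but each setting reused tumors of the fit that chose these genes. HGA and primary AGASAC share only replicate numbers (r between −0.05 and 0.03 across genes), and the replicate block gave 17. Metastases and primary tumors gave 0 calls in every setting, the replicate block by dog included, which gave 0, and leaving out each tumor gave 0 to 0. HGA and metastases gave 11 calls, with 18 by Benjamini-Hochberg adjustment, 7 with the replicate block and 3 to 15 when leaving out each tumor. The 8 correlations stayed above an adjusted p of 0.05 with library size alone or a pseudocount of 0.5. Low counts limit STARD4, TM7SF2, VLDLR and NSDHL. The called genes MVD, NR1H3 and SOAT1 also had fewer than 10 counts in at least 1 tumor. Together with STARD4 and TM7SF2 they were left untested by the minimum of 10 counts in every sample.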
